A study of Mus musculus with 4 samples.

Results

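The genes described here are the interferon-response genes of mouse colon crypt cells, with the interferon receptors, the Stat and Irf transcription factors and the antiviral families they induce. Members were gene probes whose file name begins with Ifi and a digit, Ifit, Ifih, Ifnar, Ifngr, Oas, Irf and a digit, Stat and a digit, Isg, or Gbp and a digit, or is Usp18, Mx1, Mx2, Rsad2, Ddx58 or Dhx58. The rule found 106 probes of 68 gene names among 28307 on the array, and 44 of the 68 had a probe bright enough to test. It also takes in by name Irf2bp1, Irf2bp2, Isg20l2 and Ifitm5, which share a prefix with the family.

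RNA from 2 sorted populations of adult mouse colon was hybridised together on 2-colour arrays, in 2 replicates (n = 2), each read on a first array and again with the dyes swapped. The Lgr5-GFP population was sorted by GFP from crypts of Lgr5_EGFP-ires-CreERT2 knock-in mice, in which the Lgr5 promoter drives GFP. The CD24hi population was sorted with a PE-conjugated antibody to CD24, which the design describes as a route to some of the goblet cells, and both came from normal tissue. The labels do not give the number of animals or say that the replicates came from separate ones, so the tests reflect the spread between these samples alone, and that spread may be technical.

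Interferons are secreted antiviral proteins. Type I interferons bind the receptor made of Ifnar1 and Ifnar2, whose kinases Tyk2 and Jak1 phosphorylate Stat proteins, among them Stat2. With Irf9 these form ISGF3, a complex that binds interferon-stimulated response elements (ISRE) in promoters, while interferon gamma acts through Ifngr1 and Ifngr2 and a Stat dimer that binds gamma-activated sites (GAS). Intestinal epithelial cells also respond to type III interferons and keep some interferon-stimulated genes active in the absence of infection.

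The sorting markers went against the labels. Lgr5, the stem cell receptor whose promoter drives the GFP, had a log2 ratio of -3.41 ± 0.29 in RNA labelled Lgr5-GFP relative to RNA labelled CD24hi (SD, n = 2), and was well above background on 2 arrays in RNA labelled Lgr5-GFP. Smoc2 and Ascl2, further stem cell genes, were at -2.78 ± 0.39 and -1.31 ± 0.25, and the proliferation gene Mki67 at -3.03 ± 0.62. Cd24a was at 2.12 ± 0.30, and the goblet cell genes Muc2 and Atoh1 at 3.76 ± 0.58 and 2.57 ± 0.06. Every direction given here is therefore that of the labels as deposited, and with the labels exchanged each gene called higher would be lower and each called lower would be higher.

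On the dye swap of replicate 1 the scanner software marked 75.3% of gene spots as outliers, against 0.231% to 0.399% on the other arrays. These spots were left out, so 23 of the 44 tested members had values on 3 arrays and 21 on all 4. Before any correction, the median signal of gene spots on that dye swap was 4377 in RNA labelled Lgr5-GFP and 1358 in RNA labelled CD24hi. On the other arrays it was 94 to 164 and 110 to 197. Ratios on that dye swap tended to lie nearer 0 for the members with the largest ratios. No spot was saturated, and across tested genes, which are not independent replicates, the replicates correlated at r = 0.908.

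Of the 44 tested members, limma called 31 at an adjusted p under 0.05, or 70.5%, against 47.2% of the 14802 genes tested. In RNA labelled Lgr5-GFP, 19 members were higher (43.2%), against 21.7% of all tested genes, and 12 were lower (27.3%), against 25.5%. The other 13 did not pass. The median log2 ratio was 0.12 over tested members and -0.07 over all tested genes, and single members lay between -2.59 and 1.87. All 31 called members had 1 sign on every array with a value. These shares are over members bright enough to test, of which 41 passed in both populations and 3 in 1 of them: Mx1 and Oas2 through RNA labelled Lgr5-GFP and Gbp2 through RNA labelled CD24hi. With the 74 spots of uneven local background on the first array of replicate 2 kept in the background fit, the calls fell to 1 higher (Isg20) and 4 lower (Ifitm3, Ifitm7, Ifngr1 and Irf8), while all 31 kept their sign. In that setting 11.4% of tested members were called, against 8.78% of all tested genes. In sorted bulk RNA, fewer cells of a type and less RNA per cell cannot be told apart.

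**Figure D1:**
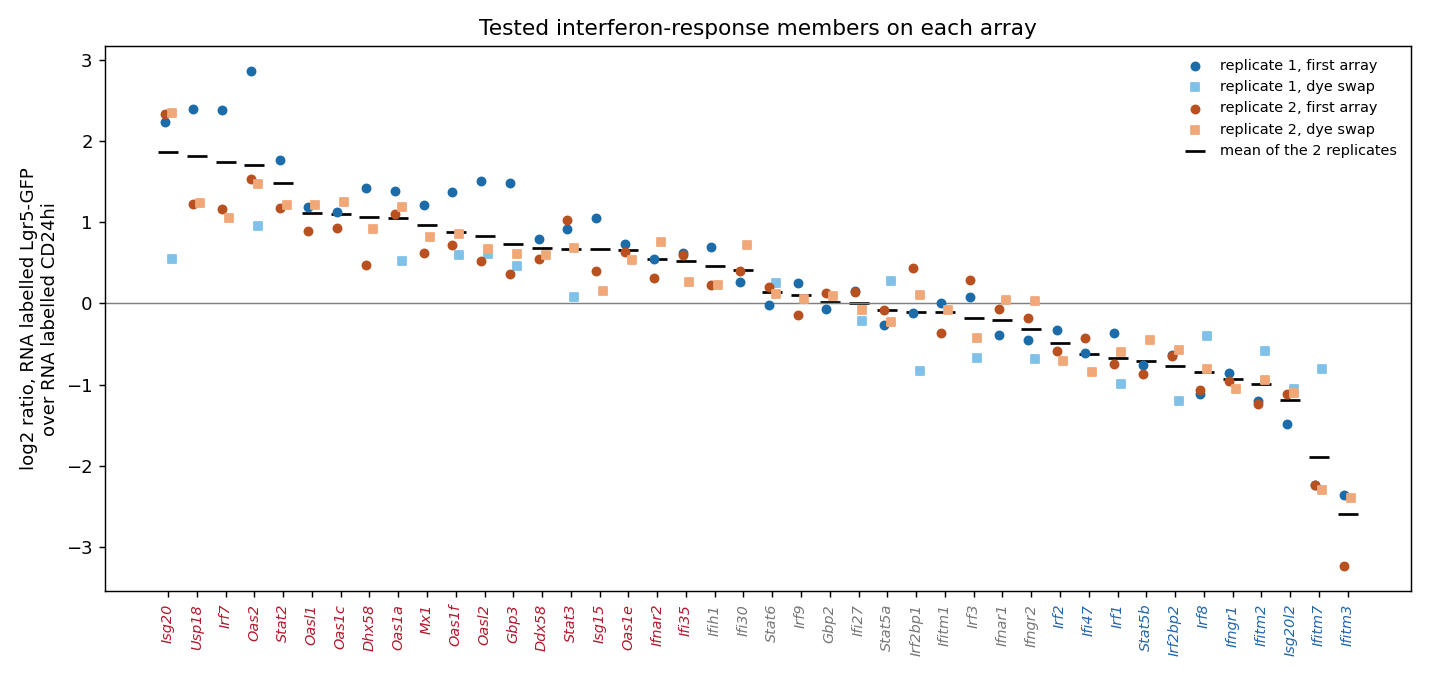
Log2 ratio of RNA labelled Lgr5-GFP to RNA labelled CD24hi for 42 of the 44 tested members (y axis), ordered by ratio (x axis). Circles are first arrays and squares dye swaps, blue for replicate 1 and orange for replicate 2, the dash is the mean of the 2 replicates, and names are red where called higher, blue where called lower and grey where not called. The means run from 1.87 for Isg20 to -2.59 for Ifitm3, and the squares of replicate 1 lie nearer 0 than its circles for Isg20, Oas2 and Ifitm7.

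**Figure D2:**
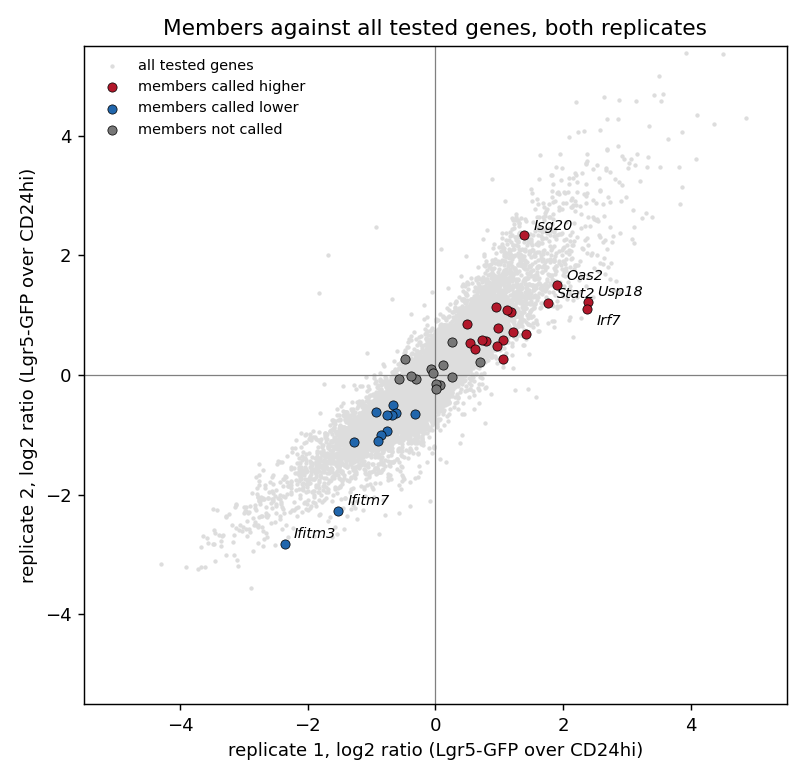
Log2 ratio in replicate 1 (x axis) against replicate 2 (y axis), with members coloured by call over all 14802 tested genes in grey. Of the 44 members, 37 had the same sign in both replicates, and Irf7 and Usp18 had larger ratios in replicate 1 than in replicate 2.

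Promoter sequence is shown first because ISGF3 and the Irf proteins bind a common motif. Promoter windows from 250 bases before to 50 bases after the start site, from RefSeq (GRCm38.p6), were matched for 55 of 68 members. They were searched on both strands for an ISRE core, GAAANNGAAA (TTTCNNTTTC on the other strand), and for a GAS core, TTCNNNGAA, which reads the same on both strands. The ISRE core was in the windows of 22 members (40.0%), against 3.99% of the 27025 genes in the table. It was in 6 of 14 matched members called higher, 3 of 11 called lower, 2 of 11 not called and 11 of 19 not tested. The GAS core was in 15 members (27.3%), against 9.55% of all genes. A match describes these letters and not a bound site. The stretches below, on the strand of the gene, lie before the start site, with the bases that match the named motif in capitals, overlapping matches joined and up to 20 bases on each side. Those of Isg15, Oas1a, Oas1c, Gbp3 and Stat2 are from genes called higher, chosen for an ISRE core before the start site.
Isg15, chr4:156200855-156200916, minus strand: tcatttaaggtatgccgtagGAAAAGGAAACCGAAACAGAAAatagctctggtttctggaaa
Oas1a, chr5:120907526-120907565, minus strand: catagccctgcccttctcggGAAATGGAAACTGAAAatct
Oas1c, chr5:120812593-120812648, minus strand: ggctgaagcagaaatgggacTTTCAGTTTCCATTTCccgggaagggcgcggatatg
Gbp3, chr3:142559979-142560034, plus strand: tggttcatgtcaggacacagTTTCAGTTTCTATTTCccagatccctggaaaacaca
Stat2, chr10:128270256-128270305, plus strand: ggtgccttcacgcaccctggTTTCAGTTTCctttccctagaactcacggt
Isg15 held 3 overlapping ISRE cores, Oas1a, Oas1c and Gbp3 held 2 each, and Stat2 held 1 at -222 to -213 from the start site. Ifitm2 and Irf2, shown next, were called lower and also held an ISRE core.
Ifitm2, chr7:140955978-140956027, minus strand: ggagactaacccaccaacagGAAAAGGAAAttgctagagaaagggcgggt
Irf2, chr8:46739495-46739533, plus strand: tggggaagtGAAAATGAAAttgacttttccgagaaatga
The Irf2 stretch also holds a GAS core at -224 to -216 from the start site, left in lower case. Irf1 and Irf8, called lower as well, had no ISRE core in these windows and are shown for the GAS core, 1 in Irf1 and 2 in Irf8.
Irf1, chr11:53769904-53769952, plus strand: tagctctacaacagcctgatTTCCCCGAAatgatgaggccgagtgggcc
Irf8, chr8:120736167-120736233, plus strand: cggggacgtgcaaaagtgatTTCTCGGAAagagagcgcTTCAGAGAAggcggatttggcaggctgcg
The ISRE core was thus found in promoters of genes called in either direction. For Irf7, Usp18 and Oas2, among the most strongly higher members, no match to either core was found. Members without a matched window would also show none. Isg20, with the largest ratio, had a GAS core and no ISRE core in its window. These genes are described below by their expression.

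Of the 4 receptor subunits, 1 was called higher (25%, against 21.7% of all tested genes), 1 lower (25%, against 25.5%) and 2 were not called. Channel levels below are log2 values of 1 dye after loess and scaling between arrays, which do not compare genes with each other. Ifngr1, the ligand-binding chain of the interferon gamma receptor, had levels of 12.39, 12.20 and 11.95 in RNA labelled Lgr5-GFP, against 13.24, 13.15 and 13.00 in RNA labelled CD24hi, with no overlap. Its log2 ratio was -0.93 ± 0.11 (limma, adjusted p = 0.00321). Ifnar2, which binds type I interferon with Ifnar1, was at 0.54 ± 0.01 by its brighter probe (limma, adjusted p = 0.0156). That probe gave 0.55 on the first array of replicate 1 and 0.32 and 0.76 on the arrays of replicate 2. The other Ifnar2 probe gave -0.32, which did not pass on its own (limma, adjusted p = 0.0844). Ifnar1 and Ifngr2, the partner chains, were at -0.20 ± 0.27 and -0.32 ± 0.35 and were not called.

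Among the Stat genes Stat2 and Stat3 were called higher and Stat5b lower, and Stat4 was too dim to test. Stat2, the subunit of ISGF3 that carries its activation domain, had levels of 11.01, 10.26 and 10.39 in RNA labelled Lgr5-GFP and 9.24, 9.08 and 9.17 in RNA labelled CD24hi. The groups did not overlap, and the log2 ratio was 1.48 ± 0.40, or 2.80-fold (limma, adjusted p = 0.00213). Irf9, the DNA-binding subunit of ISGF3, was not called, at 0.11 ± 0.21. Whether Stat2 differed from Irf9 was not tested. Stat3, which carries signals of the interleukin 6 family and interleukin 22, was higher at 0.67 ± 0.25 (limma, adjusted p = 0.0133), with 0.91, 0.08, 1.02 and 0.68 on the arrays of replicate 1 and then of replicate 2, each first array before its dye swap. Stat5b, activated by growth hormone and cytokines, was lower at -0.71 ± 0.07 (limma, adjusted p = 0.00671) by 1 probe, and its other kept probe gave -0.04. Stat5a, its close relative, was at -0.08 ± 0.11 and Stat6, which acts for interleukins 4 and 13, at 0.14 ± 0.04, and neither was called.

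**Figure D3:**
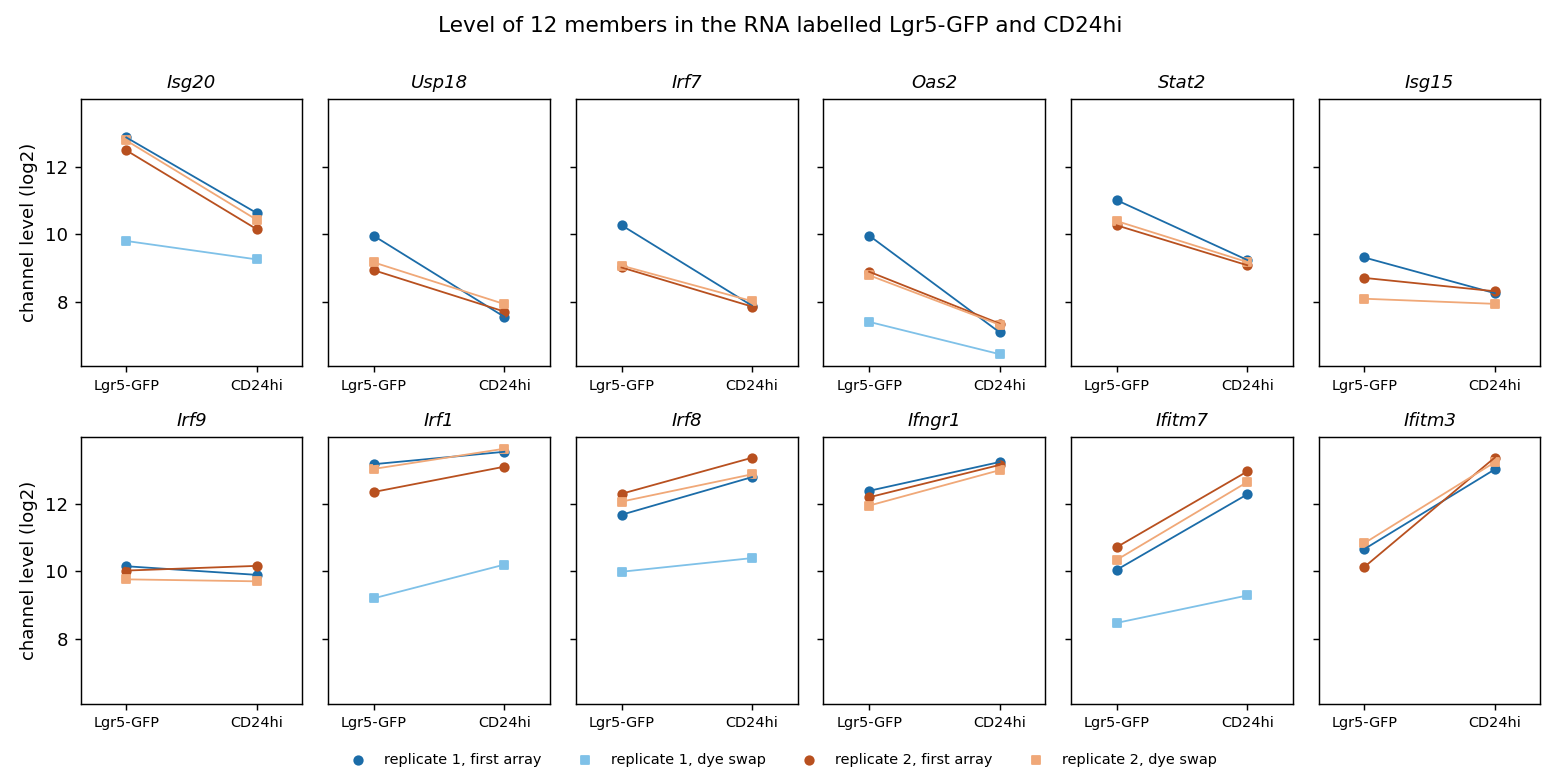
Channel level (log2, y axis) of 12 members in RNA labelled Lgr5-GFP (left of each panel) and RNA labelled CD24hi (right), with a line for each array. Blue marks replicate 1, orange replicate 2, circles first arrays and squares dye swaps, and a missing line means that the spot was left out on the dye swap of replicate 1. Levels fall from left to right for Isg20, Usp18, Irf7, Oas2, Stat2 and Isg15 and climb for Irf1, Irf8, Ifngr1, Ifitm7 and Ifitm3, while for Irf9 they lie near each other.

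Among the Irf genes Irf7 was called higher and Irf1, Irf2 and Irf8 lower, while Irf3 and Irf9 were not called. Irf4 and Irf5, factors of immune cells, were too dim to test. Irf7, which amplifies type I interferon responses and is itself induced by them, had levels of 10.26, 9.01 and 9.07 in RNA labelled Lgr5-GFP and 7.88, 7.86 and 8.02 in RNA labelled CD24hi. The groups did not overlap. The ratio was 1.74 ± 0.90, or 3.35-fold (limma, adjusted p = 0.00657), and replicate 1 at 2.38 exceeded replicate 2 at 1.10. Irf1, an interferon-induced factor with broad antiviral roles, had ratios of -0.37, -0.996, -0.75 and -0.60 on the 4 arrays by its brighter probe, with a mean of -0.68 ± 0.01 (limma, adjusted p = 0.00752). Its second probe gave 0.35 and did not pass on its own (adjusted p = 0.0588). Irf8, best known as a factor of myeloid and B cells, was at -1.11, -0.40, -1.07 and -0.81 on the arrays, a mean of -0.85 ± 0.13 (limma, adjusted p = 0.00431). Its second probe gave -0.18. Irf2, a repressor at Irf sites, was at -0.48 ± 0.23 (limma, adjusted p = 0.0349). Irf3, the constitutive factor activated by viral RNA and DNA sensing, was not called at -0.18 ± 0.16 by its brighter probe, while the other probe gave -1.13 and passed on its own (adjusted p = 0.00168). Among the binding partners of Irf2, Irf2bp2 was lower at -0.77 ± 0.22 (limma, adjusted p = 0.00771), and Irf2bp1 was not called at -0.10 ± 0.53.

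The probes of a gene often gave different sizes. Of 13 members with several tested probes, 7 had all of them on 1 side of 0, and none had probes called in opposite directions when each probe was tested on its own. In that fit, limma called 35 of 61 member probes, against 46.3% of all 20616 probes tested.

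Of 3 cytosolic RNA sensors, 2 were called higher (66.7%, against 21.7% of all tested genes) and 1 was not called. Dhx58 (LGP2), which modulates the other sensors, was at 1.06 ± 0.52, with 1.43 on the first array of replicate 1 and 0.47 and 0.92 on the arrays of replicate 2 (limma, adjusted p = 0.00879). Ddx58 (RIG-I), which detects viral RNA ends, was at 0.68 ± 0.16 (limma, adjusted p = 0.00934). Ifih1 (MDA5), the sensor of long viral RNA, was at 0.46 ± 0.33 and was not called (limma, adjusted p = 0.0581).

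Active Oas enzymes sense viral RNA and make the 2-5A messenger that switches on RNase L. Its probes lay on chromosome 5, at chr5:115362168-115387615 for Oasl1 and Oasl2 and at chr5:121180434-121371569 for the others (mm9). All 7 tested members were called higher (100%, against 21.7% of all tested genes), though Oas2 passed the filter on dim probes through RNA labelled Lgr5-GFP alone. Oas1b, Oas1d, Oas1g, Oas1h and Oas3 were too dim to test. Oas2 had levels of 9.96, 7.40, 8.89 and 8.78 in RNA labelled Lgr5-GFP, against 7.09, 6.45, 7.35 and 7.32 in RNA labelled CD24hi. The groups did not overlap, and the lowest value of each came from the dye swap of replicate 1. The ratio was 1.70 ± 0.29, or 3.26-fold (limma, adjusted p = 0.00107), but in RNA labelled CD24hi the probe was well above background on 2 of 4 arrays. That ratio was 4.05 with the software's processed signals and 4.25 in the deposited series table. Oas1a, whose promoter is shown above, was at 1.38, 0.52, 1.09 and 1.18 on the arrays, a mean of 1.04 ± 0.13 (limma, adjusted p = 0.0024). Oas1c was at 1.10 ± 0.02 and Oasl1, a ubiquitin-like member that restrains Irf7 translation in mice, at 1.12 ± 0.09. Oasl2, Oas1f and Oas1e were at 0.83 ± 0.33, 0.88 ± 0.14 and 0.66 ± 0.11. No probe of an Oas member matched that of another member at 36 or more bases in any ungapped alignment of at least 40 bases. This compares probes with each other, and whether a probe also binds RNA of another Oas gene was not tested.

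The Isg genes and Usp18 included the largest positive ratios. Isg20, an antiviral exonuclease of RNA, had levels of 12.86, 9.80, 12.48 and 12.77 in RNA labelled Lgr5-GFP and 10.62, 9.25, 10.15 and 10.42 in RNA labelled CD24hi. Without the dye swap of replicate 1, where both of its levels were lowest, the groups did not overlap. The ratio was 1.87 ± 0.67, or 3.65-fold (limma, adjusted p = 0.00269), and a second probe gave 1.96. Usp18, which removes Isg15 from proteins and blocks Ifnar2 signalling, had levels of 9.95, 8.93 and 9.16 in RNA labelled Lgr5-GFP, against 7.55, 7.71 and 7.93 in RNA labelled CD24hi. The groups did not overlap, and the ratio was 1.81 ± 0.83 (limma, adjusted p = 0.00463), from 2.40 in the first replicate and 1.23 in the second. Isg15, the ubiquitin-like protein itself, had ratios of 1.06, 0.40 and 0.15 on the arrays with a value, a mean of 0.66 ± 0.55 (limma, adjusted p = 0.0445). Its levels overlapped between the groups. Isg20l2, known in human cells as a nucleolar exonuclease of ribosomal RNA processing, was lower at -1.19 ± 0.11 (limma, adjusted p = 0.00167). Its second probe gave -0.25.

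Mx1, an antiviral GTPase of the nucleus in mice, was not well above background in RNA labelled CD24hi on any array with a value. It was at least 1.95-fold higher in RNA labelled Lgr5-GFP, with measured mean levels of 8.24 in RNA labelled Lgr5-GFP and 7.28 in RNA labelled CD24hi (limma, adjusted p = 0.00615). Mx2, its cytoplasmic relative, and Rsad2 (viperin) were too dim to test. So were Ifit1, Ifit2 and Ifit3, which bind viral RNA and are among the most inducible interferon targets. Their probes were well above background on at most 2 arrays in RNA labelled Lgr5-GFP and 2 in RNA labelled CD24hi.

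The Ifitm proteins are small membrane proteins that block virus entry. Of 4 tested, limma called 3 lower (75%, against 25.5% of all tested genes) and 0 higher (against 21.7%). Ifitm1 was not called at -0.11 ± 0.16 (limma, unadjusted p = 0.435). Ifitm3 had levels of 10.66, 10.13 and 10.84 in RNA labelled Lgr5-GFP, against 13.02, 13.37 and 13.23 in RNA labelled CD24hi. The groups lay far apart, and the ratio was -2.59 ± 0.32, a 6.01-fold difference (limma, adjusted p = 0.000647), the lowest among tested members. Ifitm7 was at -2.23, -0.81, -2.24 and -2.30 on the 4 arrays, a mean of -1.90 ± 0.53 (limma, adjusted p = 0.00168). Ifitm2 was at -1.20, -0.58, -1.24 and -0.95, a mean of -0.99 ± 0.14 (limma, adjusted p = 0.00286), and a second probe gave -0.93. The probes of Ifitm1, Ifitm3, Ifitm5 and Ifitm6 and the brighter one of Ifitm2 lay within chr7:148135949-148201773 (mm9). The second Ifitm2 probe was annotated at chr7:54087914-54087973, outside that cluster, and the Ifitm7 probe on chromosome 16. Ifitm5 and Ifitm6 were too dim to test. The closest pair of probes of different members was Ifitm5 and Ifitm7, with 36 matching bases over 54.

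The guanylate-binding proteins, GTPases induced mostly by interferon gamma, were largely dim. Gbp3 was higher at 1.48, 0.46, 0.37 and 0.60 on the 4 arrays, a mean of 0.73 ± 0.34 (limma, adjusted p = 0.0146). Gbp2 was not called at 0.02 ± 0.13, and Gbp1, Gbp4, Gbp5 and Gbp6 were too dim to test. Of the further Ifi genes, Ifi35, which pairs with the protein Nmi, was higher at 0.52 ± 0.13 (limma, adjusted p = 0.0205), and Ifi47, an immunity-related GTPase, was lower at -0.63 ± 0.01 (limma, adjusted p = 0.00978). Ifi47 was at -0.62 on the first array of replicate 1 and at -0.43 and -0.85 on the arrays of replicate 2. Ifi30, a lysosomal thiol reductase, was not called at 0.41 ± 0.21, nor was Ifi27, with -0.03 and 0.03 in the replicates. Ifi202b, Ifi203, Ifi204, Ifi205 and Ifi44 were too dim to test.

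**Figure D4:**
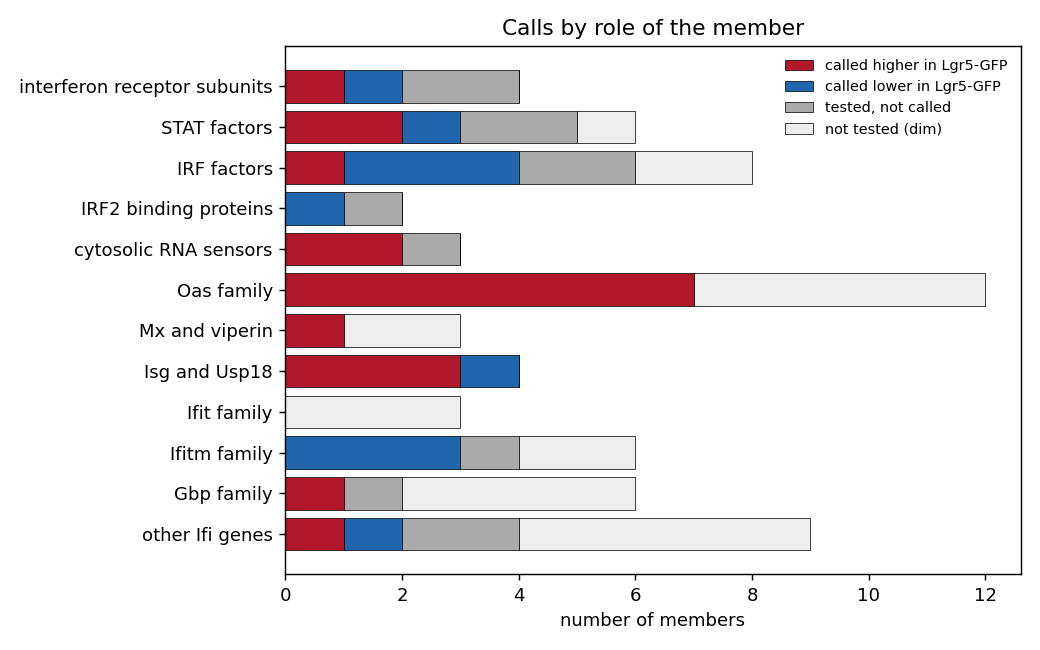
Number of members, 66 of the 68 (x axis), by role (y axis), split into called higher in RNA labelled Lgr5-GFP (red), called lower (blue), tested but not called (grey) and not tested because every probe was dim (pale). The Oas bar holds 7 called higher and 5 not tested, and the Ifitm bar 3 called lower, 1 not called and 2 not tested.

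Other genes of the pathway were read from lists. Of 7 tested interferon ligands limma called 0, with 0 at an unadjusted p under 0.05, log2 ratios between -0.26 (Ifnz) and 0.10, and channel levels of 7.83 to 8.52 in RNA labelled Lgr5-GFP and 7.88 to 8.60 in RNA labelled CD24hi, near the dim end of the range. Ifna13 was at -0.13 ± 0.08.

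Of 13 tested JAK kinases and cytokine receptors, 7 were higher (53.8%, against 21.7% of all tested genes) and 0 lower (against 25.5%). The median log2 ratio was 0.45, and Il17ra, not a JAK partner receptor, is counted among the 7. Il17ra passed the filter on dim probes through RNA labelled Lgr5-GFP alone. Tyk2, the kinase of Ifnar1, was at 1.22 ± 0.02 (limma, adjusted p = 0.00142), and Jak1, named after its value was seen because it is the kinase of Ifnar2, at 0.53 ± 0.14 (limma, adjusted p = 0.0205). Il4ra and Il13ra1, chains of the interleukin 4 and 13 receptors that act through Stat6, were at 1.94 ± 0.08 and 1.08 ± 0.30. Il10rb, shared by the receptors of interleukins 10 and 22 and type III interferon, was at 0.87 ± 0.16. Ghr and Il6ra, at 0.40 ± 0.22 and 0.29 ± 0.24, were not called.

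Of 15 tested negative regulators of JAK-STAT signalling, 3 were higher and 3 lower, with a median of -0.25. These shares lay below the 21.7% and 25.5% of all tested genes. Cish, a target and brake of Stat5, was at -1.75 ± 0.18 (limma, adjusted p = 0.000844), and Pias3, an inhibitor of Stat3, at 1.37 ± 0.18 (limma, adjusted p = 0.00134). Socs1 and Socs5, inhibitors of JAK signalling, were at 0.58 ± 0.26 and 0.39 ± 0.10, and the phosphatases Ptpn2 and Ptpn6 at -0.47 ± 0.03 and -0.41 ± 0.17. Socs3 and Socs6 were not called, at -0.48 ± 0.49 and -0.31 ± 0.20.

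Of 23 tested genes of nucleic acid and bacterial sensing, 8 were higher (34.8%, against 21.7% of all tested genes) and 6 lower (26.1%, against 25.5%). The median was 0.15, and Tlr2, Tlr4, Nod1 and Nod2 are counted beside the genes of nucleic acid sensing. Zbp1, a sensor of Z-form nucleic acid, was at 2.55 ± 0.32 (limma, adjusted p = 0.000647). Nlrx1, a mitochondrial regulator, Ticam1, the adaptor of Tlr3, and Azi2, an adaptor of Tbk1, were at 1.40 ± 0.27, 0.88 ± 0.32 and 0.67 ± 0.21. The DNA-sensing pair Cgas and Tmem173 (STING) were lower, at -1.004 ± 0.10 and -1.89 ± 0.18 (limma, adjusted p = 0.00252 and 0.000756), as were the bacterial sensors Tlr2 and Nod1 at -1.22 ± 0.03 and -0.82 ± 0.18. Tlr4 and Irak1 were not called, at 0.34 ± 0.16 and -0.30 ± 0.11.

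Of 55 further interferon-stimulated genes tested, 25 were higher (45.5%, against 21.7% of all tested genes) and 10 lower (18.2%, against 25.5%), with a median of 0.23. These counts include genes that passed the filter on dim probes only through the population where they were high. Ido1, Tap1 and Trim30a, called higher, passed through RNA labelled Lgr5-GFP alone. Cxcl10 and Apol9a, called lower, passed through RNA labelled CD24hi alone. Ido1, a tryptophan-degrading enzyme, was at 2.92 ± 0.51 (limma, adjusted p = 0.000728), and was well above background on 2 arrays in RNA labelled CD24hi. Its ratio was 5.55 with the software's processed signals and 5.70 in the series table. Apol9b, Tor3a and the peptide transporter gene Tap2 were at 1.67 ± 0.48, 1.34 ± 0.36 and 1.28 ± 0.42. Ripk3, a kinase of necroptosis, was at -1.48 ± 0.07, and the inflammatory caspase gene Casp4, the chemokine gene Cxcl10 and the GTPase gene Tgtp1 at -1.28 ± 0.23, -1.04 ± 0.28 and -0.87 ± 0.24. Cxcl10 was well above background on 1 array in RNA labelled Lgr5-GFP, and its ratio ran from -2.77 to -0.75 over the alternatives. Psmb8, of the immunoproteasome, and Eif2ak2 (PKR) were not called, at -0.37 ± 0.08 and -0.36 ± 0.20.

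**Figure D5:**
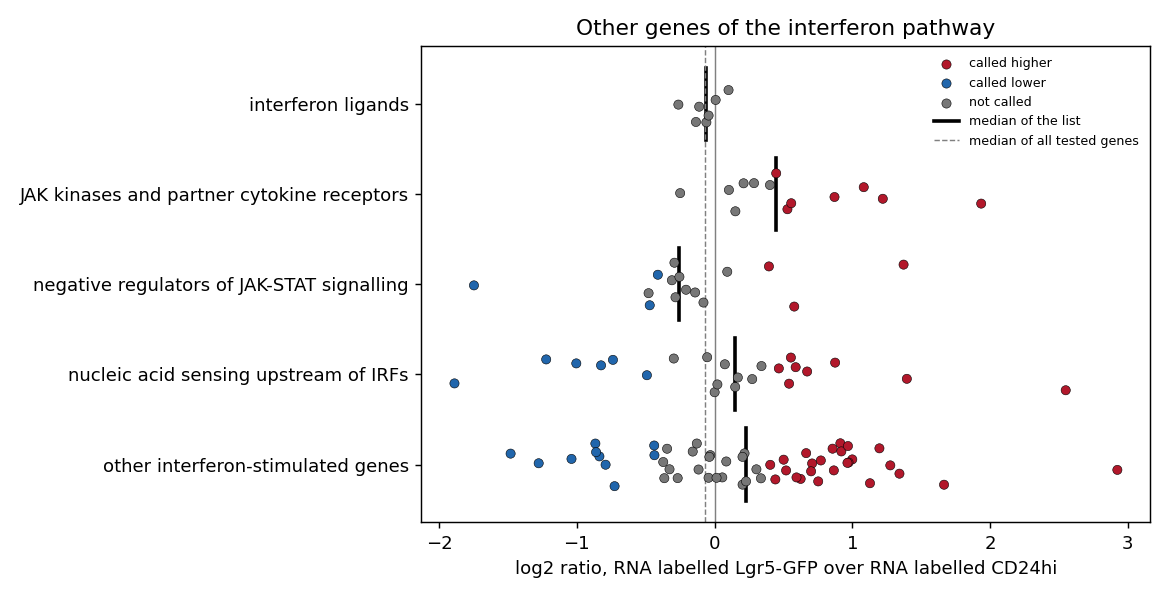
Log2 ratio of RNA labelled Lgr5-GFP to RNA labelled CD24hi (x axis) for tested genes of 5 further lists of the pathway (y axis, points spread vertically for sight), coloured by call. The black bar is the list's median and the dashed line that of all tested genes, -0.07. The 7 ligands lie between -0.26 and 0.10, and other interferon-stimulated genes spread from -1.48 (Ripk3) to 2.92 (Ido1).

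Because leukocytes also express many of these genes, markers of other cells were read beside them. All 5 genes common to leukocytes failed the filter on dim probes, and 2 of them were dim on all arrays in both populations. Ptprc was well above background on 3 arrays in RNA labelled Lgr5-GFP and 1 in RNA labelled CD24hi. The 5 had a summed level on the linear scale of 618 to 692 in RNA labelled Lgr5-GFP and 554 to 636 in RNA labelled CD24hi over 3 arrays. This sum and those below count every listed gene on the array, dim ones included, whose level is largely background. Sums of mostly dim genes therefore do not measure the amount of other cells. Of 18 T and NK cell genes on the array, 4 were tested and 0 called, with sums of 3082 to 3355 in RNA labelled Lgr5-GFP and 3182 to 3332 in RNA labelled CD24hi, and 7 were dim on all arrays in both. None of those 4 had an unadjusted p under 0.05 in limma. Of 9 B and plasma cell genes 3 were tested, with Pou2af1 lower at -0.51 ± 0.35 (well above background on 1 array in RNA labelled Lgr5-GFP and 3 in RNA labelled CD24hi), and sums of 1497 to 1888 in RNA labelled Lgr5-GFP and 1646 to 1875 in RNA labelled CD24hi. Of 18 myeloid genes 6 were tested, with C1qa higher at 0.99 ± 0.12 (well above background on 3 arrays in RNA labelled Lgr5-GFP and 1 in RNA labelled CD24hi) and Cd14 lower at -0.40 ± 0.14, and sums of 4602 to 5033 in RNA labelled Lgr5-GFP and 4633 to 5556 in RNA labelled CD24hi. Of 9 stromal and endothelial genes 3 were tested, with Col1a2 higher at 0.44 ± 0.16, and sums of 3681 to 5332 in RNA labelled Lgr5-GFP and 3471 to 5788 in RNA labelled CD24hi. Acta2, in the same list, was not called at -0.09 ± 0.21. Its mean log2 levels were 11.65 in RNA labelled Lgr5-GFP and 11.75 in RNA labelled CD24hi, so it held much of these sums. All 10 epithelial genes were tested, with 1 higher and 2 lower, and sums of 301121 to 355463 in RNA labelled Lgr5-GFP and 353737 to 420537 in RNA labelled CD24hi. The part of leukocytes and stromal cells in the interferon-gene ratios was not tested.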

How the data were processed

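The members and gene lists were chosen with earlier results of these data known. Per the file headers, Feature Extraction 10.5.1.1 read the images of an Agilent scanner. The deposited intensity values are mean spot brightness and median local background per dye, and a further deposited set of intensity values was background-subtracted and dye-normalized by that software, which also gave a deposited log10 ratio of red over green. The deposited series table holds a log2 ratio per array. Set against each array's log10 ratio it had slopes of 2.91 to 3.30 and medians of -0.0034, 0.032, -0.0033 and -0.014. It is centred near 0, its swapped columns are not turned, and its normalization was not given in the sources used here.

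Leaving out spots of uneven background was adopted in an earlier analysis of these arrays after no gene had passed with them kept, so the counts of calls rest on a choice made with results known. In the processing used here, 1299 genes passed with them kept, against 6985 with them left out. In limma 3.58.1 (R 4.3.3), 74 gene spots of uneven local background were left out, background was corrected with normexp (offset 50), marked outlier spots were left out, and global loess was run with control spots at weight 0. Signs were turned on dye swaps, spots averaged per probe, and an array and its swap averaged to 1 ratio per replicate. For 23 tested members, among them 17 of the 31 called, the dye swap of replicate 1 gave no value. Their ratio in replicate 1 is that of the first array alone, so a dye effect there is not averaged out. Limma tested the 2 ratios against 0 (2-sided, Benjamini-Hochberg over all genes, 4.50 prior degrees of freedom), and was tested on simulated data: with few changed genes the ratios were recovered but none passed the adjustment, so a simulation with many changed genes was added, in which most passed. Slide and replicate cannot be told apart, with 1 slide per replicate. Probes had to be well above background in at least 1 population on all 4 arrays, judged before marked spots were left out. Each gene took the brightest of its probes that passed. The numbers of arrays well above background given for single genes cover only arrays with a value. Channel levels were taken after loess and Aquantile scaling, and a bound of at least N-fold uses the higher of the dim probe's own signal and the lowest signal well above background. The number of arrays limits the precision. Values after ± are SDs of the 2 replicate ratios.

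Gene names are those of the file, updated through RefSeq (GRCm38.p6) for 27041 of 43379 gene spots, and members keep the file's name: Gbp1 is now Gbp2b, Gbp6 is Gbp7, and 2 of 3 probes named Ifi27 are Ifi27l2a. A pair of further spots whose updated name is a member's were not members by file name and were left out. A pair of members are counted in the totals but not reported here. Named were all other called members, every other receptor, Stat and Irf member, and per further list up to 4 called genes per direction with the largest ratio and up to 2 not called. Other listed genes were named where they limit a count or a sum. Probe positions are those of the files, build mm9. Alternatives covered the background correction, normalization, series table, dim and marked spots, probe choice and each array and replicate, and the fit of each probe on its own was added after seeing the data.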

Additional observations from a re-analysis of the deposited data

How the results depend on the processing

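Under 15 alternatives with a test and without either replicate, the 31 called members kept their sign wherever they had a value. Irf3, not called at -0.18, was called at -0.65 with the mean of its probes and was at 0.18, not called, on first arrays only. Members called higher and lower numbered 19 and 12, and stayed within 1.5 times of that except in 3 settings. With normexp fitted with the uneven backgrounds kept, 1 was higher and 4 lower. On dye swaps alone, and without the first array of replicate 1, 2 were higher and 2 lower of 21 tested, where fewer members had a value. The same settings called 1299 of 14802 genes (8.78%), 969 of 6021 (16.1%) and 983 of 6022 (16.3%), against 6985 of 14802 (47.2%) as reported. Of tested members they called 11.4%, 19% and 19%, against 70.5% as reported. With marked spots kept, 3731 genes (25.2%) were called, with 13 members higher and 10 lower (52.3% of tested members). The cause of the drop with marked or uneven spots kept was not tested.

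Median centring in place of loess moved the median of all genes to -0.25 from -0.07, with 2219 genes higher and 5425 lower (3205 and 3780 as reported) and 15 members higher and 13 lower. The processed signals gave 2637 and 4995, with 16 and 12 members. With the processed signals the folds of 6 called members (Irf7, Usp18, Oas2, Oas1e, Mx1 and Gbp3) were over 1.5 times as large, and so were those of the same 6 in the series table. Irf7 was at 2.60 and 2.68 in these, Usp18 at 3.003 and 3.06, and Mx1, dim in RNA labelled CD24hi, at 3.59 and 3.94. The members' median ranged from -0.15 to 0.19. Ifitm3, Ifitm7, Ifngr1 and Isg20 were called in every tested alternative that gave them a value, while Isg15, Stat3 and Ifnar2 each lost their call in 6 alternatives and Ifi35 in 5. Without replicate 1 the ratio of Irf7 was 1.10 and that of Usp18 1.23, and without replicate 2 they were 2.38 and 2.40. The fit of each probe on its own called the brightest probes of 19 members higher and 12 lower. Each array compares both populations directly, so the test of the ratios against 0 already pairs them, and there is 1 group of ratios.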
